A study of Homo sapiens with 6 samples.

Results

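The genes described here encode ion channels and their accessory subunits, the proteins that let potassium, sodium, calcium and chloride cross cell membranes. They were taken by symbol from the protein-coding genes of the deposited table: potassium channels (KCN genes), voltage-gated sodium and calcium channels (SCN and CACN genes), TRP channels, polycystins, calcium release channels (ITPR and RYR), the STIM and ORAI genes of store-operated calcium entry, chloride channels and anoctamins (CLCN, CLIC and ANO), and the Piezo, P2X, ASIC and HCN channels. The rule found 177 genes among the 16569 genes of the table, and 101 of them averaged 10 or more normalized counts across all 6 libraries and entered the test. RNA was sequenced from LX-2, a human stellate cell line of the liver that was immortalised in culture and is labelled wild type. As a model it is 1 cell line grown without the other cells of the liver. The first group, of 3 libraries, received IGFBP-7, a protein that cells secrete and that is named for binding insulin-like growth factors, at 100 ng/mL for 24 h. The second group, also of 3 libraries, received phosphate-buffered saline (PBS) for the same time. Both groups had been grown with 2% serum and then held for 18 h without it. The labels leave unsaid whether separate cultures gave the 3 libraries of each group, so p-values reflect only how these libraries vary, and that variation may be technical.

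Stellate cells are the pericytes of the liver sinusoid, and after injury they become contractile, matrix-producing myofibroblasts. Rises in cytosolic calcium drive that contraction. In cells that do not fire action potentials, much of the calcium enters when the store in the endoplasmic reticulum empties: STIM proteins sense the loss and open ORAI channels in the plasma membrane. Potassium channels set the membrane voltage that pulls calcium in, and mechanically gated, TRP and P2X channels admit cations in response to force, lipids, oxidants or extracellular ATP.

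Levels are the authors' normalized counts, that is, read counts divided by 1 factor per library. The recovered counts came to 45242993 to 55479940 reads per IGFBP-7 library and 40599380 to 43537923 per PBS library. A fragment was counted as 2 reads. A level of 3 fragments in a library equals 2.54 to 3.20 normalized counts, the floor under which a value is not distinguished from 0 here, and it covers counting error only. Log2 changes are IGFBP-7 minus PBS on log2(normalized count + 1), which understates changes of low genes, and are given ± SE from limma-trend. Means are given ± SD of 3 libraries per group. In bulk RNA, fewer cells with a transcript and less of it per cell cannot be told apart. A gene is said to rise or fall where the Benjamini-Hochberg adjusted p over all 11872 genes tested was under 0.05. Of the stellate and myofibroblast markers, 13 of the 14 in the table passed the level filter. The muscle filament gene DES, at 1.36 ± 2.36 with IGFBP-7 and 0 ± 0 with PBS, did not, and VIM, LRAT and GFAP were not analysed here. RELN (71.8 ± 19.7 with IGFBP-7 and 529 ± 44.0 with PBS) and HAND2 (70.8 ± 12.1 with IGFBP-7 and 107 ± 17.9 with PBS) fell. NGFR and RGS5 did not pass the threshold, and the other tested stellate markers rose. COL1A1 among them was at 198928 ± 8843 with IGFBP-7 and 49614 ± 1794 with PBS. Markers of excitable cells were mixed. The level filter passed 5 of the 8 neuronal markers present, and RBFOX3, at 1.82 ± 1.71 with IGFBP-7 and 2.36 ± 2.12 with PBS, ELAVL3 and GAP43 did not. Their sum was 4768 to 5036 in the IGFBP-7 libraries and 3621 to 3880 in the PBS libraries, most of it TUBB3. Of the others SYT1 rose (848 ± 98.7 with IGFBP-7 and 667 ± 93.8 with PBS), and SNAP25 (125 ± 19.3 with IGFBP-7 and 381 ± 42.3 with PBS) and MAP2 (211 ± 41.5 with IGFBP-7 and 359 ± 8.76 with PBS) fell. Of 8 striated muscle markers 2 passed the filter, ACTN2 (771 ± 61.9 with IGFBP-7 and 871 ± 52.1 with PBS) and MYH3 (101 ± 18.6 with IGFBP-7 and 88.3 ± 24.5 with PBS), and neither changed past the threshold. MYH7 was at 0.681 ± 1.18 with IGFBP-7 and 1.37 ± 2.38 with PBS, and the list summed to 810.1 to 948 in the IGFBP-7 libraries and 927 to 995 in the PBS libraries. The 7 markers of macrophages and leukocytes summed to 1736 to 2016 in the IGFBP-7 libraries and 3286 to 3370.4 in the PBS libraries, most of it CD68. The tested members of this list moved in opposite directions. CD68 and CD14 fell, while CSF1R rose (293 ± 44.3 with IGFBP-7 and 56.5 ± 8.05 with PBS). PTPRC, which defines leukocytes, averaged 4.67 ± 3.17 with IGFBP-7 and 5.59 ± 4.54 with PBS. Of the 7 epithelial markers KRT8, KRT18 and SOX9 rose and KRT7 did not pass the threshold. KRT8 was at 22821 ± 1319 with IGFBP-7 and 14472 ± 234 with PBS, and EPCAM, KRT19 and CDH1 were under the level filter. The part of these differences in the results below was not tested.

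After IGFBP-7, 27 of the 101 tested channel genes rose, 30 fell and 44 did not pass. The 57 changed genes are 56.4% of those tested, and over all genes 60.6% changed, a share near that of the channel genes. Groups of libraries did not overlap in 65 of the 101 (64.4%), against 63.5% of all genes. Over all genes 31.3% rose and 29.2% fell. The median log2 change was -0.14 for the tested channel genes and 0.02 for all genes. Scaling to the library total, which moved the median of all genes by -0.14, gave 23 channel genes higher and 38 lower, and 2435 higher and 4176 lower over all genes against 3721 and 3471 here. No call reversed under that scaling or quantile normalization. Differences among families were in which members moved: most families held both genes that rose and genes that fell, as the plot of log2 changes by family shows.

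**Figure D1:**
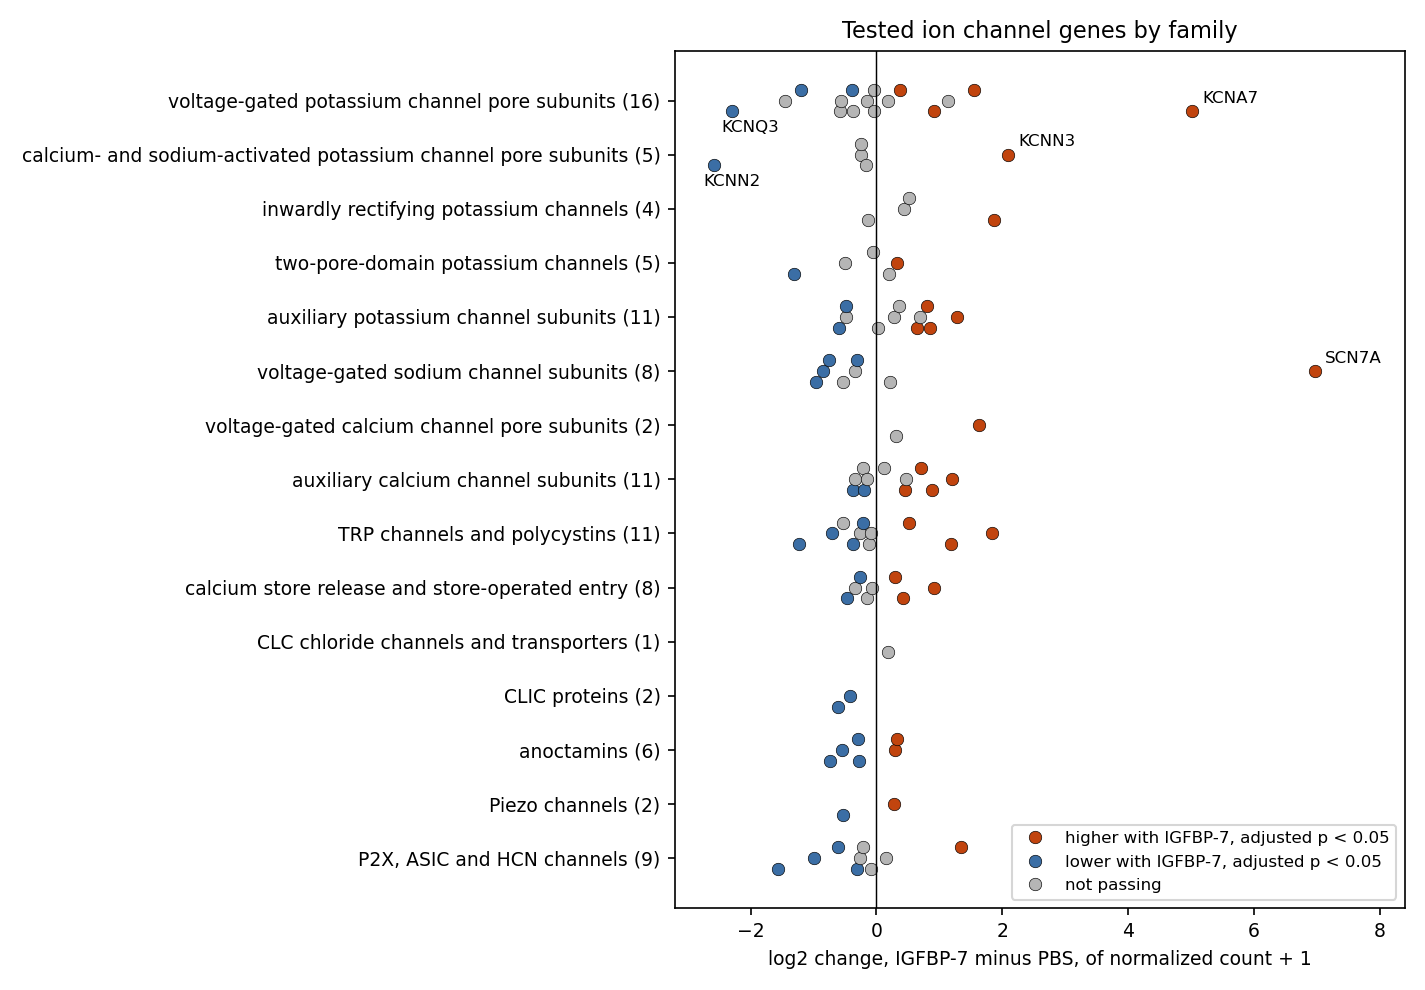
Each point is 1 tested channel gene, placed by its log2 change (IGFBP-7 minus PBS, on log2 of normalized count + 1) in the row of its family, with the number tested in parentheses; vertical offsets within a row carry no meaning. Orange points are higher with IGFBP-7 and blue points lower at a limma adjusted p under 0.05, grey points did not pass, and SCN7A and KCNA7 lie far to the right.

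In all, 11 members rose by at least a log2 change of 1, namely SCN7A, KCNA7, KCNN3, KCNJ10, TRPM8, CACNA1C, KCNG1, ASIC3, KCNE4, CACNA2D3 and TRPM2, and 6 fell by as much, namely KCNN2, KCNQ3, P2RX6, KCNK2, TRPC4 and KCNS1. Over all genes 5.05% rose and 6.33% fell by that much. Of the tested members, 8 passed the level filter with a PBS mean under 10 and 1, KCNN2, with an IGFBP-7 mean under 10. Among the risers these were SCN7A, KCNA7, KCNN3, KCNJ10 and TRPM8, and a gene that passes the filter through its high group alone had to differ, so the number of large rises is no evidence about channel genes. P2RX7, with a log2 change of -0.9997 ± 0.11, lay just outside the line.

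**Figure D2:**
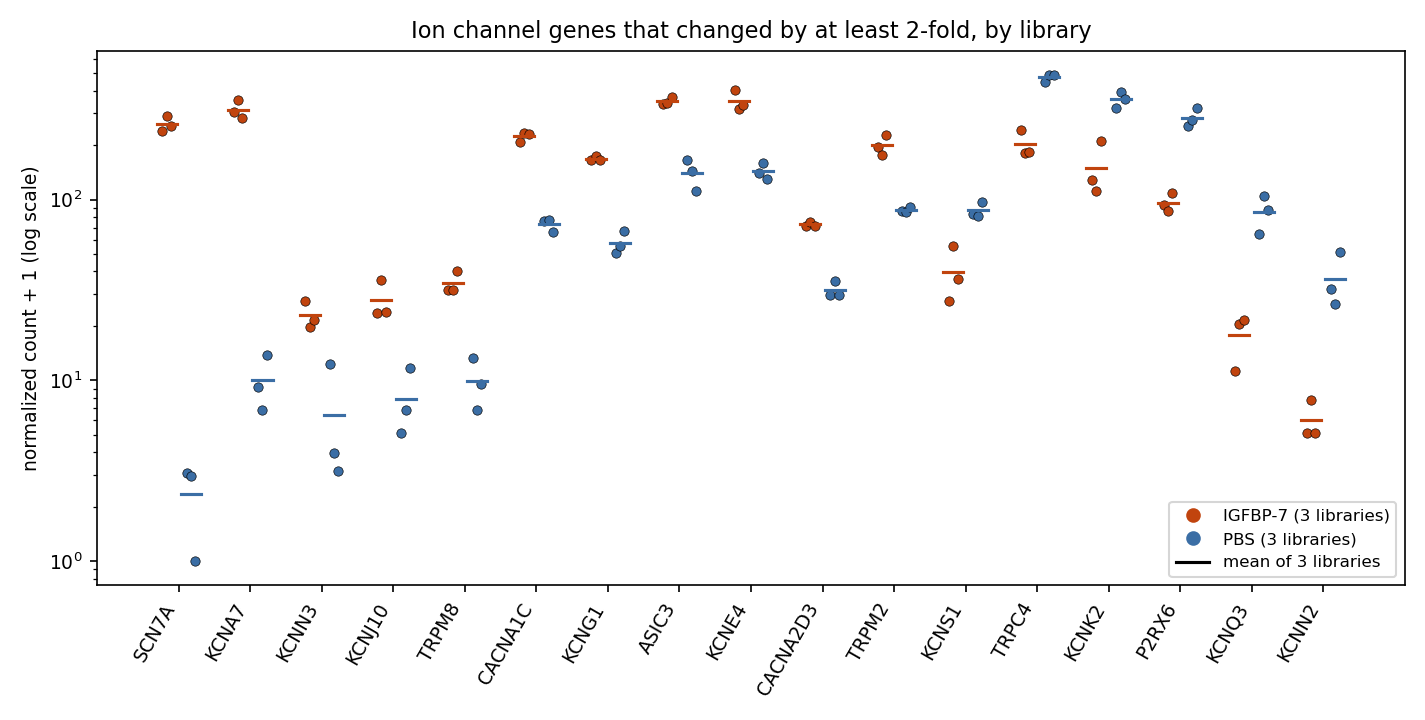
Normalized counts + 1 on a log axis in each library for the 17 channel genes that changed by at least 2-fold, ordered from the largest rise to the largest fall. Orange points are IGFBP-7 libraries and blue points PBS libraries, and horizontal lines are means of 3 libraries. In each of these genes the groups do not overlap, which is no further support, because the genes were chosen by test and fold in these same libraries.

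SCN7A encodes Nax, an atypical member of the sodium channel family linked to sodium sensing rather than to action potentials. It had 237, 290.5 and 254 normalized counts in the IGFBP-7 libraries, against 2.06, 1.96 and 0 in the PBS libraries. That was 821 fragments with IGFBP-7 against 4 with PBS, a ratio of 192 with an exact 95% counting interval of 74.7 to 707, and a log2 change of 6.97 ± 0.45 (limma adjusted p = 4e-19). KCNA7, a Shaker-type voltage-gated potassium channel gene, had 305, 352 and 280.0 normalized counts in the IGFBP-7 libraries, against 8.24, 5.89 and 12.8 in the PBS libraries. Both genes were near the floor without IGFBP-7 and well above it in every treated library. For KCNA7 the log2 change was 5.02 ± 0.29 (limma adjusted p = 5.46e-21). It had 985 fragments with IGFBP-7 and 26 with PBS, and their ratio was 35.4 (interval 24.0 to 54.5). Both intervals are for fragments pooled within each group, and they leave out the spread between libraries.

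The promoters of these 2 genes and of KCNN2 and KCNK2, which fell, are shown to let their base composition and short motifs be compared. These genes carry some of the largest changes, but size of change was not the only criterion. KCNQ3 (-2.30) and P2RX6 (-1.56) fell further than KCNK2 (-1.31) and are not shown. The windows run from 250 bases before to 50 after the most upstream start in the RefSeq table for GRCh38.p14. Capitals mark matches on either strand to 6 motifs: CAGACA (SMAD), TGANTCA (AP-1), GGAATG (TEAD), TGGAAA (NFAT), CACGTG (E-box) and GGGCGG (GC box). RefSeq lists 2 starts for SCN7A and for KCNK2, and the data do not say which is used.
SCN7A (chr2:166494200-166494499, minus strand): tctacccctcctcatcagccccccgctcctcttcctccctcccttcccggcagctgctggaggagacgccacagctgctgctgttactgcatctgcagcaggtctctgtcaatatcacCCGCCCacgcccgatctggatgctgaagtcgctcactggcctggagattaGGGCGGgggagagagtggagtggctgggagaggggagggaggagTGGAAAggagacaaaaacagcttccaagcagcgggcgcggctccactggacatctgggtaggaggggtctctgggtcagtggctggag
KCNA7 (chr19:49072650-49072949, minus strand): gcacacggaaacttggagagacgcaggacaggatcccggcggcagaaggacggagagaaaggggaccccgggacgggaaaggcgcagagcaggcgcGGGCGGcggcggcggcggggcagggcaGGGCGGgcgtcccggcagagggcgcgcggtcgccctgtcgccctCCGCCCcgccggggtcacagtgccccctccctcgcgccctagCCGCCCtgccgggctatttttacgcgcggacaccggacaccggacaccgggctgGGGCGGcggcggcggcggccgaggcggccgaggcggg
KCNN2 (chr5:114361820-114362119, plus strand): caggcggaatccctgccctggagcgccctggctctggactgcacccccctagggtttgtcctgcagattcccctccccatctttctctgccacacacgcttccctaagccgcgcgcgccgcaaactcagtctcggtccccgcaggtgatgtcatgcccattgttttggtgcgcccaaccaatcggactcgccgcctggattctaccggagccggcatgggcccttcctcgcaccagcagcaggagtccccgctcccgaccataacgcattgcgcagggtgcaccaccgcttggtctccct
KCNK2 (chr1:215005292-215005591, plus strand): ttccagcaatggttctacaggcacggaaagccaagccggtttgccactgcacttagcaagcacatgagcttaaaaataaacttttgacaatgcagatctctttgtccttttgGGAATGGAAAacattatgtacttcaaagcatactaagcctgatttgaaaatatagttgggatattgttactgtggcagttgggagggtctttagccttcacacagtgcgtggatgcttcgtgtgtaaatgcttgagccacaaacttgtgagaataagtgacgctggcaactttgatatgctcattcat
The windows differ widely in base composition, with a GC content of 62.7% for SCN7A, 77.7% for KCNA7, 64.7% for KCNN2 and 42.0% for KCNK2. KCNA7 held 5 GC boxes and SCN7A 2 and an NFAT match. In KCNK2 a TEAD and an NFAT match overlap in 1 run, and KCNN2 held no match to the 6 motifs. No window of the 4 held a SMAD or AP-1 match. A promoter was listed for 75 of the 101 tested members, 25 of them with more than 1 start. GC boxes stood in 77.3% of 22 promoters of members that rose, in 14 of 20 of members that fell, in 69.7% of 33 of members that did not pass, and in 65.9% of 7827 promoters of tested protein-coding genes. The median GC content of these 4 sets was 71.3%, 66.0%, 67.7% and 64.3%, in the same order. Its part in the GC box shares was not tested. The SMAD motif stood in 2 of the 22, in 0 of the 20 and in 4 of the 33, against 13.6% of the 7827. A match is a string of letters and not a binding site, and a missing match says nothing about a factor.

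Among the store-operated calcium entry genes, STIM2 and ORAI2 rose while STIM1 and ORAI1 fell. STIM1, the main sensor of calcium in the endoplasmic reticulum, had 2143, 2185 and 1903 normalized counts in the IGFBP-7 libraries, against 2816, 2796 and 2948 in the PBS libraries. Its relative STIM2, which responds to smaller losses from the store, had 3088, 3081 and 3059 normalized counts in the IGFBP-7 libraries, against 2277, 2308 and 2276 in the PBS libraries. STIM1 fell and STIM2 rose without overlap of the groups, by a log2 change of -0.46 ± 0.06 (limma adjusted p = 1.97e-08) and a log2 change of 0.43 ± 0.06 (limma adjusted p = 2.25e-08). ORAI1, the channel pore that STIM1 opens, had 1857, 1579 and 1719 normalized counts in the IGFBP-7 libraries, against 2044, 2142 and 1968 in the PBS libraries. ORAI2, a pore subunit of the same family, had 8217, 7714 and 7861 normalized counts in the IGFBP-7 libraries, against 6513, 6493 and 6476 in the PBS libraries. ORAI1 fell with a log2 change of -0.26 ± 0.07 (limma adjusted p = 0.0012), ORAI2 rose with a log2 change of 0.29 ± 0.05 (limma adjusted p = 1.32e-06), and ORAI3 did not pass at -0.07 ± 0.11. STIM1 shares 132 exon bases with STIM1-AS1, which was at 50.9 ± 15 with IGFBP-7 and 63.7 ± 18 with PBS. Whether counting used the strand is unstated in the labels, so reads on shared bases cannot be told apart. Such sharing with a gene on the other strand touched 13 tested members, 7 of which changed.

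Ratios within a library do not depend on the scaling between libraries, and 3 were formed after the values had been seen, so they are given without a test. STIM2 to STIM1 was 1.44, 1.41 and 1.61 in the IGFBP-7 libraries, against 0.808, 0.825 and 0.772 in the PBS libraries. These counts are not divided by exon length, so a ratio above or below 1 does not say which gene has more RNA. ORAI2 to ORAI1 was 4.42, 4.89 and 4.57 in the IGFBP-7 libraries, against 3.19, 3.03 and 3.29 in the PBS libraries. Both ratios were higher in each IGFBP-7 library than in any PBS library. This had to follow, since in each pair 1 gene rose and the other fell without overlap of the groups.

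**Figure D3:**
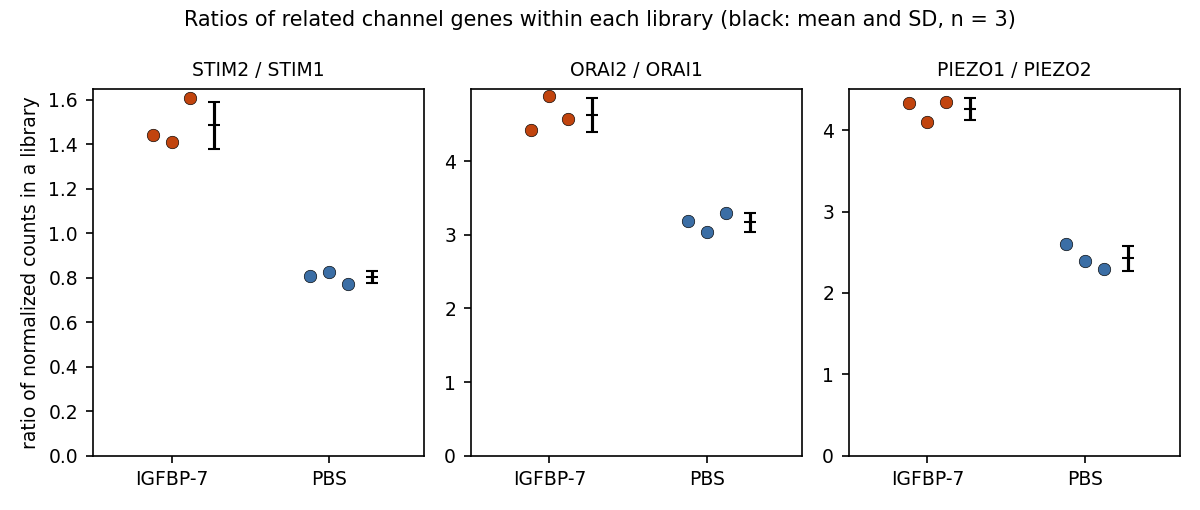
Ratio of normalized counts of 2 related genes within each library, on axes that start at 0, for STIM2 to STIM1, ORAI2 to ORAI1 and PIEZO1 to PIEZO2. Orange points are IGFBP-7 libraries, blue points PBS libraries, and black marks give the mean and SD of 3 libraries. In all 3 panels the IGFBP-7 libraries lie above the PBS libraries, which the opposite changes of the 2 genes of each pair fix in advance.

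Of the 3 tested calcium release channels, RYR3 rose and ITPR1 and RYR2 did not pass. RYR3, a ryanodine receptor gene, had 205, 238 and 203 normalized counts in the IGFBP-7 libraries, against 96.8, 122 and 125 in the PBS libraries, with a log2 change of 0.91 ± 0.17 (limma adjusted p = 1.13e-05). ITPR1, a receptor for inositol trisphosphate that releases stored calcium, had 976, 978 and 1060.1 normalized counts in the IGFBP-7 libraries, against 1207, 1030.2 and 1096 in the PBS libraries, groups that overlap. Its log2 change was -0.14 ± 0.08 (limma adjusted p = 0.127), and it passed downward on scaling to the library total (-0.28, adjusted p = 0.00279). RYR2, the main release channel of the heart, named after its values were seen, was at -0.34 ± 0.27, and RYR1 was under the level filter. ITPR2 and ITPR3 were not analysed here.

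The mechanically gated Piezo genes split in the same manner. PIEZO1, which opens on membrane stretch, had 17246, 15594 and 15832 normalized counts in the IGFBP-7 libraries, against 13699.8, 12735 and 13499.7 in the PBS libraries. PIEZO2, best known from touch neurons, had 3979.6, 3806 and 3643 normalized counts in the IGFBP-7 libraries, against 5273, 5336 and 5887 in the PBS libraries. PIEZO1 rose with a log2 change of 0.28 ± 0.05 (limma adjusted p = 4.09e-07) and PIEZO2 fell with a log2 change of -0.53 ± 0.06 (limma adjusted p = 9.15e-12). Neither gene's groups overlap. The ratio of PIEZO1 to PIEZO2 was 4.33, 4.1 and 4.34 in the IGFBP-7 libraries, against 2.6, 2.39 and 2.29 in the PBS libraries. PIEZO1 shares 49 exon bases with CTU2 on the other strand, which is few beside its exon length of 11292 bases.

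Among the TRP channels, a family of mostly calcium-permeable cation channels, and polycystin-2, 3 rose, 4 fell and 4 missed the threshold among 11 tested. TRPM8, the cold and menthol receptor, had 30.7, 30.5 and 39.3 normalized counts in the IGFBP-7 libraries, against 12.4, 5.89 and 8.54 in the PBS libraries, low values that do not overlap, and a log2 change of 1.84 ± 0.49 (limma adjusted p = 0.00105). TRPM2, opened by ADP-ribose during oxidative stress, had 194, 175 and 225 normalized counts in the IGFBP-7 libraries, against 85.5, 84.5 and 89.7 in the PBS libraries and a log2 change of 1.18 ± 0.19 (limma adjusted p = 3.05e-07). Both rises kept their calls under either other scaling. TRPC4, opened downstream of G protein-coupled receptors, had 242, 179.5 and 183 normalized counts in the IGFBP-7 libraries, against 444, 487 and 486 in the PBS libraries. It fell with a log2 change of -1.24 ± 0.13 (limma adjusted p = 1.61e-11), and its groups do not overlap.

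TRPV2, TRPM7 and PKD2, each with means over 1000 normalized counts, fell. TRPV2, a cation channel of the vanilloid subfamily, had 2728, 2360.2 and 2599 normalized counts in the IGFBP-7 libraries, against 4349, 3959 and 4186 in the PBS libraries, with a log2 change of -0.70 ± 0.06 (limma adjusted p = 1.56e-14). TRPM7, a channel fused to a kinase that carries magnesium and calcium, had 3961, 4504 and 4044 normalized counts in the IGFBP-7 libraries, against 4586, 5011 and 4924 in the PBS libraries, with a log2 change of -0.22 ± 0.06 (limma adjusted p = 0.000868). PKD2, which encodes polycystin-2, a cation channel of primary cilia and the endoplasmic reticulum, had 4570.5, 4709 and 4369.6 normalized counts in the IGFBP-7 libraries, against 5568, 6192 and 5969.6 in the PBS libraries, with a log2 change of -0.38 ± 0.05 (limma adjusted p = 3.26e-08). The IGFBP-7 libraries lay below the PBS libraries in all 3 genes. TRPM3 (-0.08 ± 0.47), TRPM4 (-0.11 ± 0.11), TRPV4 (-0.54 ± 0.54) and the capsaicin receptor gene TRPV1 (-0.26 ± 0.13) did not pass. TRPV1 passed downward without IGFBP-7 replicate 2 (-0.35, adjusted p = 0.033) and on scaling to the library total (-0.40, adjusted p = 0.00799), as did TRPM4 on that scaling (-0.25, adjusted p = 0.0427).

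Voltage-gated calcium channels are built from a pore subunit and auxiliary subunits that set its traffic and gating. Only 2 of the 10 pore genes in the table passed the level filter. CACNA1C, the L-type pore that couples voltage to contraction in smooth and cardiac muscle, had 208, 233 and 230.4 normalized counts in the IGFBP-7 libraries, against 75.2, 75.6 and 65.2 in the PBS libraries. It rose with a log2 change of 1.62 ± 0.19 (limma adjusted p = 1.4e-10) and its groups stood far apart. CACNA1C shares 552 exon bases with ITFG2-AS1, 564 with CACNA1C-AS1 and 84 with CACNA1C-AS2, all on the other strand. ITFG2-AS1 was at 188 ± 22.1 with IGFBP-7 and 198 ± 25 with PBS, CACNA1C-AS1 at 10.1 ± 2.33 with IGFBP-7 and 4.47 ± 3.32 with PBS, and CACNA1C-AS2 at 5.44 ± 5.63 with IGFBP-7 and 1.04 ± 1.03 with PBS. CACNA1G, a T-type pore named after its values were seen, was at 0.31 ± 0.14 (limma adjusted p = 0.0519) and passed upward without IGFBP-7 replicate 3 (0.43, adjusted p = 0.012).

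Among auxiliary calcium channel subunits 4 of 11 rose, 2 fell and 5 did not pass. Scaling to the library total left 2 higher and 3 lower. CACNA2D1, the gabapentin-binding alpha2-delta subunit, averaged 3213 ± 297 normalized counts with IGFBP-7 and 1951 ± 71.3 with PBS, with a log2 change of 0.72 ± 0.07 (limma adjusted p = 9.84e-14). CACNA2D3 of the same family had 70.5, 74.5 and 70.3 normalized counts in the IGFBP-7 libraries, against 28.8, 34.4 and 28.8 in the PBS libraries, with a log2 change of 1.20 ± 0.30 (limma adjusted p = 0.000451). The cytoplasmic beta subunit gene CACNB3 moved the other way, with 1705, 1509 and 1454 normalized counts in the IGFBP-7 libraries, against 1975, 1967 and 2071 in the PBS libraries and a log2 change of -0.37 ± 0.07 (limma adjusted p = 1.14e-05). The remaining calls rest on the choice of libraries or of scaling. CACNG7 (0.45 ± 0.14) and CACNB4 (0.88 ± 0.37) lost their rise on scaling to the library total, and edgeR did not call CACNB4. CACNB4 also lost it without IGFBP-7 replicate 2 (0.76, adjusted p = 0.135), without IGFBP-7 replicate 3 (0.69, adjusted p = 0.175), without PBS replicate 2 (0.74, adjusted p = 0.111) and without PBS replicate 3 (0.73, adjusted p = 0.105). CACNB1 (-0.20 ± 0.09) lost its fall without IGFBP-7 replicate 1 (-0.20, adjusted p = 0.0825), without IGFBP-7 replicate 2 (-0.17, adjusted p = 0.133), without PBS replicate 1 (-0.18, adjusted p = 0.114) and without PBS replicate 2 (-0.19, adjusted p = 0.0939). CACNA2D1, CACNG7, CACNB4 and CACNB1 were named after their values were seen.

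Apart from SCN7A, the sodium channel genes that changed fell. SCN8A, a pore gene best known from neurons, had 2419, 2284 and 2082 normalized counts in the IGFBP-7 libraries, against 3642, 3755 and 4087 in the PBS libraries. It fell without overlap of the groups, with a log2 change of -0.76 ± 0.06 (limma adjusted p = 3.28e-15). SCN9A, a pore gene of pain-sensing neurons, fell with a log2 change of -0.31 ± 0.07 (limma adjusted p = 0.000305), but it shares 1122 exon bases with SCN1A-AS1, which fell too, at 245 ± 35.6 with IGFBP-7 and 358 ± 21.1 with PBS. In total 1 of 8 tested sodium channel genes rose, 4 fell and 3 did not pass. SCN9A was named after its values were seen.

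Voltage-gated potassium channels open on depolarisation and bring the membrane back towards rest. Of 16 tested voltage-gated pore genes, 4 rose, 3 fell and 9 did not pass. KCNG1, a silent subunit that modifies other channels, had 164, 173 and 164 normalized counts in the IGFBP-7 libraries, against 49.4, 54 and 66.2 in the PBS libraries, with a log2 change of 1.55 ± 0.21 (limma adjusted p = 1.32e-08). KCNH1, an ether-a-go-go channel gene named after its values were seen, averaged 336 ± 30.1 normalized counts with IGFBP-7 and 177 ± 4.64 with PBS, with a log2 change of 0.92 ± 0.14 (limma adjusted p = 1.62e-07). KCNQ3, a subunit of the M-current, had 10.2, 19.5 and 20.7 normalized counts in the IGFBP-7 libraries, against 63.8, 104 and 86.5 in the PBS libraries, with a log2 change of -2.30 ± 0.35 (limma adjusted p = 1.26e-07). KCNS1, a silent subunit of another subfamily, had 26.6, 54.2 and 35.1 normalized counts in the IGFBP-7 libraries, against 82.4, 80.5 and 96.1 in the PBS libraries, with a log2 change of -1.20 ± 0.28 (limma adjusted p = 0.000288). Silent subunits thus stood on both sides, KCNG1 higher and KCNS1 lower. KCNC4, which also rose (0.38 ± 0.08), and KCNS3, which fell (-0.38 ± 0.13), were named after their values were seen, and KCNS3 lost its call without IGFBP-7 replicate 2 (-0.32, adjusted p = 0.0605) and without PBS replicate 3 (-0.30, adjusted p = 0.0834).

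The small-conductance calcium-activated potassium channels changed in opposite directions at low level. KCNN2 had 4.09, 6.77 and 4.13 normalized counts in the IGFBP-7 libraries, against 30.9, 25.5 and 50.2 in the PBS libraries, with a log2 change of -2.58 ± 0.55 (limma adjusted p = 6.54e-05). KCNN3 had 26.6, 18.6 and 20.7 normalized counts in the IGFBP-7 libraries, against 11.3, 2.95 and 2.14 in the PBS libraries, with a log2 change of 2.09 ± 0.64 (limma adjusted p = 0.00447). The first fell and the second rose, on 16 fragments with IGFBP-7 and 103 with PBS for KCNN2, and 68 with IGFBP-7 and 16 with PBS for KCNN3. KCNN4, the intermediate-conductance channel of non-excitable cells, had 479, 401 and 379 normalized counts in the IGFBP-7 libraries, against 523, 539 and 437 in the PBS libraries, groups that overlap. It missed the threshold with a log2 change of -0.25 ± 0.11 (limma adjusted p = 0.0518). It passed downward without IGFBP-7 replicate 1 (-0.35, adjusted p = 0.0162) and without PBS replicate 3 (-0.35, adjusted p = 0.0144). It also passed by edgeR (-0.28, adjusted p = 0.0294) and DESeq2 (-0.27, adjusted p = 0.0454) on recovered reads, on scaling to the library total (-0.39, adjusted p = 0.00319), with the filter at 100 (-0.25, adjusted p = 0.0453) and with the replicate number as a block (-0.25, adjusted p = 0.0462). KCNMA1 was not analysed here.

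Of the inward rectifiers 4 were tested and 1 rose. KCNJ10, which clears potassium in glia, had 22.5, 34.7 and 22.7 normalized counts in the IGFBP-7 libraries, against 4.12, 5.89 and 10.7 in the PBS libraries, with a log2 change of 1.86 ± 0.55 (limma adjusted p = 0.00328). KCNJ6, the tested member nearest the level filter with a mean of 10.3, was at -0.14 ± 0.74, and the member nearest below it, KCNU1, had a mean of 9.53. Among 5 tested background (K2P) channels, KCNK2, which encodes the stretch- and lipid-sensitive channel TREK-1, had 127, 110.1 and 211 normalized counts in the IGFBP-7 libraries, against 320.3, 394 and 357 in the PBS libraries. KCNK2 fell with a log2 change of -1.31 ± 0.17 (limma adjusted p = 2.16e-09). KCNK6 of the same family averaged 624 ± 58.3 normalized counts with IGFBP-7 and 496 ± 33.7 with PBS, with a log2 change of 0.33 ± 0.10 (limma adjusted p = 0.00508), a rise that was lost on scaling to the library total (0.19, adjusted p = 0.114) and without IGFBP-7 replicate 1 (0.26, adjusted p = 0.0509).

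Auxiliary potassium channel subunits rose in 4 of 11 cases and fell in 2, and 5 did not pass. KCNE4, which restrains voltage-gated potassium channels, had 405, 317 and 331 normalized counts in the IGFBP-7 libraries, against 140.0, 159 and 129 in the PBS libraries, with a log2 change of 1.29 ± 0.15 (limma adjusted p = 1.74e-10). KCNMB4, an auxiliary subunit of the large-conductance channel, was at 0.64 ± 0.13, KCNAB1 at 0.80 ± 0.21 and KCNIP4 at 0.85 ± 0.25, and these 3 rises were named after their values were seen. KCNIP3, a calcium-binding subunit that also acts as a transcriptional repressor, had 158, 208 and 194 normalized counts in the IGFBP-7 libraries, against 245, 332 and 272 in the PBS libraries, with a log2 change of -0.59 ± 0.15 (limma adjusted p = 0.000659). KCNAB2, also named afterwards, fell (-0.48 ± 0.09) and shares 111 exon bases with NPHP4, which rose, at 1779 ± 136 with IGFBP-7 and 1447 ± 108 with PBS.

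Of the anoctamins, which include calcium-activated chloride channels and lipid scramblases, 2 of 6 rose and 4 fell. ANO6, a scramblase that exposes phosphatidylserine when calcium rises, had 13166, 12241 and 11939 normalized counts in the IGFBP-7 libraries, against 9633, 10144 and 10541 in the PBS libraries, with a log2 change of 0.30 ± 0.05 (limma adjusted p = 3.06e-07). ANO10 averaged 2466 ± 71.8 normalized counts with IGFBP-7 and 2998 ± 89.2 with PBS and ANO4 742 ± 60.7 normalized counts with IGFBP-7 and 1094 ± 143 with PBS, with log2 changes of -0.28 ± 0.06 and -0.55 ± 0.09, both named after their values were seen. ANO1, the calcium-activated chloride channel of epithelia and smooth muscle, had 2 fragments in the IGFBP-7 libraries and 2 in the PBS libraries. The calls for ANO7, ANO8 and ANO9 turned on single libraries. ANO7 (0.33 ± 0.13) lost its rise without IGFBP-7 replicate 1 (0.32, adjusted p = 0.0671), without IGFBP-7 replicate 2 (0.28, adjusted p = 0.121), without PBS replicate 2 (0.32, adjusted p = 0.0609) and on scaling to the library total (0.19, adjusted p = 0.222). ANO9 (-0.73 ± 0.30) lost its fall without IGFBP-7 replicate 2 (-0.50, adjusted p = 0.182), without PBS replicate 1 (-0.68, adjusted p = 0.0908), without PBS replicate 3 (-0.68, adjusted p = 0.094), with quantile normalization (-0.66, adjusted p = 0.0584) and with no filter (-0.73, adjusted p = 0.0786). ANO8 (-0.29 ± 0.09), named afterwards, lost its fall without PBS replicate 3 (-0.21, adjusted p = 0.0869).

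CLIC proteins exist in soluble and membrane forms, and both tested members fell. CLIC6 had 155, 212 and 177 normalized counts in the IGFBP-7 libraries, against 254, 304 and 268 in the PBS libraries, with a log2 change of -0.61 ± 0.15 (limma adjusted p = 0.00047). CLIC2, named after its values were seen, was at -0.41 ± 0.17, with groups that overlap. CLIC2 lost its call with quantile normalization and with DESeq2, and also without IGFBP-7 replicate 1 (-0.29, adjusted p = 0.183), without IGFBP-7 replicate 3 (-0.32, adjusted p = 0.133), without PBS replicate 1 (-0.38, adjusted p = 0.0986) and without PBS replicate 3 (-0.37, adjusted p = 0.0984). CLCN2, the 1 tested gene of the CLC family and also named afterwards, was at 0.18 ± 0.10 and did not pass, and shares 2103 exon bases with FAM131A. CLIC1 and CLIC4 were not analysed here.

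Channels opened by extracellular ATP fell or did not pass. P2RX6 had 92, 85.5 and 107 normalized counts in the IGFBP-7 libraries, against 255, 275 and 318 in the PBS libraries. P2RX7, which triggers inflammasome signalling in macrophages, had 341, 308 and 298 normalized counts in the IGFBP-7 libraries, against 617, 561 and 727 in the PBS libraries. P2RX4, opened by low ATP, averaged 659.9 ± 23.1 normalized counts with IGFBP-7 and 1006 ± 67.1 with PBS. All 3 fell without overlap, with log2 changes of -1.56 ± 0.17, -0.9997 ± 0.11 and -0.61 ± 0.09 (limma adjusted p = 2.41e-11, 9.02e-11 and 4.99e-08). P2RX5, at 0.15 ± 0.13, did not pass and shares 1743 exon bases with the readthrough gene P2RX5-TAX1BP3. The acid-sensing channels split: ASIC3 had 338, 340.4 and 368 normalized counts in the IGFBP-7 libraries, against 165, 142 and 110.0 in the PBS libraries, with a log2 change of 1.34 ± 0.15 (limma adjusted p = 1.2e-10), while ASIC1 averaged 787 ± 31.4 normalized counts with IGFBP-7 and 976 ± 27.3 with PBS, with a log2 change of -0.31 ± 0.08 (limma adjusted p = 0.00133). The pacemaker channel genes HCN2 (-0.09 ± 0.15), HCN3 (-0.22 ± 0.12) and HCN4 (-0.26 ± 0.52) did not pass, though HCN3 passed downward on scaling to the library total and without IGFBP-7 replicate 2 (-0.30, adjusted p = 0.0457). HCN2, HCN3, HCN4, P2RX5, P2RX7, P2RX4 and ASIC1 were named after their values were seen.

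Ranked per kilobase of exon by the mean over all 6 libraries, ANO6, PIEZO1, TRPV2 and PKD2 had the highest levels among the channel genes. The order of their means differed between the groups. In normalized counts per kilobase, ANO6 averaged 1512 ± 77.6 with IGFBP-7 and 1227 ± 55.3 with PBS, and PIEZO1 1437 ± 79.1 with IGFBP-7 and 1179 ± 45.1 with PBS. TRPV2 averaged 751 ± 54.8 with IGFBP-7 and 1221 ± 57.5 with PBS, and PKD2 828 ± 31.1 with IGFBP-7 and 1075 ± 57.5 with PBS. With IGFBP-7, TRPV2 stood below ANO6 and PIEZO1, and the levels of TRPV2 and PKD2 lay within their spread of each other. With PBS the levels of TRPV2, ANO6 and PIEZO1 lay within their spread of each other. On the same scale ORAI1 had 759.7 ± 61.6 with IGFBP-7 and 907 ± 38.4 with PBS and ORAI2 714 ± 23.3 with IGFBP-7 and 585 ± 1.68 with PBS, so the levels of these 2 genes lay within their spread of each other with IGFBP-7 and apart with PBS. Lengths are unions of exons in GENCODE 29, so a level is too low for a gene of which short transcripts are used. Of the 19 members averaging 1000 or more normalized counts, 6 rose and 12 fell, and of all genes at that level 92.2% changed, 52.7% upward and 39.5% downward. At a mean of 100 to under 1000, 15 of 45 members rose and 14 fell, while 51.9% of all genes changed, 24.3% upward and 27.6% downward. At a mean of 10 to under 100, 6 of 37 rose and 4 fell, while 26.9% of all genes changed, 10.4% upward and 16.5% downward.

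**Figure D4:**
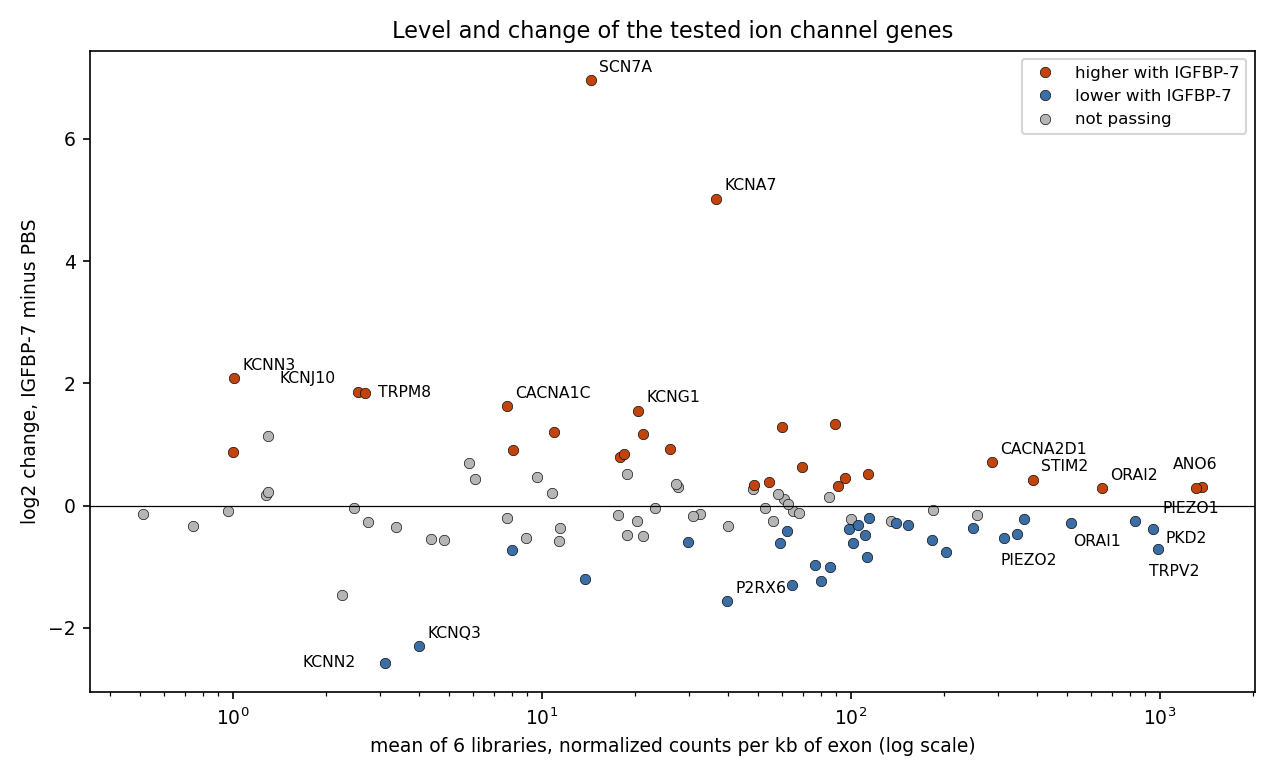
Mean level of each tested channel gene over the 6 libraries, in normalized counts per kilobase of exon on a log axis, against its log2 change (IGFBP-7 minus PBS). Orange points are higher with IGFBP-7, blue points lower and grey points did not pass; the genes with the highest levels, such as ANO6 and PIEZO1, changed by less than a log2 change of 1, and SCN7A and KCNA7 stand alone at the top.

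Other genes of ion transport and calcium signalling, listed by pathway, were read from the same fit, in which 60.6% of all genes changed, 31.3% upward and 29.2% downward. Of 55 tested channel subunits outside the symbols above, 14 rose, 22 fell and 19 missed the threshold, so 65.5% changed, and their median log2 change was -0.24. CHRNA9, a nicotinic acetylcholine receptor subunit, averaged 297 ± 13.1 normalized counts with IGFBP-7 and 8.16 ± 1.71 with PBS, with a log2 change of 5.04 ± 0.29 (limma adjusted p = 3.23e-21). The other large rises, TMC5 (2.10 ± 0.74) and the kainate receptor gene GRIK2 (1.59 ± 0.54), and the large falls, TMC8 (-3.55 ± 0.62), the NMDA receptor gene GRIN2A (-2.61 ± 0.43) and the AMPA receptor gene GRIA1 (-2.10 ± 0.60), were in genes of low level. CHRNA9, TMC5 and GRIK2 passed the filter with PBS means under 10, and TMC8, GRIN2A and GRIA1 with IGFBP-7 means under 10. Genes that pass the filter through 1 group alone had to differ. TMC5 lost its call without IGFBP-7 replicate 2 (1.99, adjusted p = 0.0526), without PBS replicate 2 (0.9955, adjusted p = 0.157) and with DESeq2 on recovered reads (1.57, adjusted p = 0.0748), and GRIK2 without IGFBP-7 replicate 3 (1.35, adjusted p = 0.0741). Of 22 pumps and exchangers, 7 rose, 10 fell and 5 did not pass, so 77.3% changed. Many of these averaged over 1000 normalized counts, a level at which 92.2% of all genes changed. SLC8A1, the main sodium-calcium exchanger, averaged 441 ± 54.8 normalized counts with IGFBP-7 and 1025 ± 61.8 with PBS, with a log2 change of -1.22 ± 0.10 (limma adjusted p = 1.29e-15). The brain exchanger SLC8A2 went the other way at low level (2.99 ± 0.68) and passed the filter with a PBS mean of 4.68. The bicarbonate transporter SLC4A7 rose (1.09 ± 0.06), as did TMCO1 of the endoplasmic reticulum (0.60 ± 0.06), and SLC9A9 and FXYD2 fell (-1.17 ± 0.12 and -1.05 ± 0.43). FXYD2 lost its call with no filter (-1.05, adjusted p = 0.065), without IGFBP-7 replicate 1 (-0.77, adjusted p = 0.134), without PBS replicate 1 (-0.89, adjusted p = 0.129) and without PBS replicate 2 (-0.98, adjusted p = 0.1).

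Among 22 tested regulators of stores and channels, 6 rose, 8 fell and 8 missed the threshold, so 63.6% changed. RRAD and GEM, small GTPases that restrain voltage-gated calcium channels through their beta subunits, both rose. RRAD averaged 975 ± 22 normalized counts with IGFBP-7 and 266 ± 19.9 with PBS, with a log2 change of 1.87 ± 0.10 (limma adjusted p = 1.06e-21), and GEM was at 0.59 ± 0.08. FKBP1A, whose protein binds ryanodine receptors, rose by 0.58 ± 0.04 on the log2 scale. NEDD4L, a ubiquitin ligase that removes sodium channels from the membrane, averaged 2869 ± 97.4 normalized counts with IGFBP-7 and 6418 ± 296 with PBS, with a log2 change of -1.16 ± 0.06 (limma adjusted p = 1.56e-24), and STAC and the kinase gene WNK4 fell too (-1.22 ± 0.12 and -1.18 ± 0.08). Of 18 tested genes of calmodulin, calcineurin, NFAT and the CaM kinases, 10 rose and 6 fell, so 88.9% changed, and scaling to the library total left 4 higher and 7 lower. Most of the 18 averaged over 1000 normalized counts, and 92.2% of all genes at that level changed. NFATC2, a calcium-driven transcription factor gene, averaged 432 ± 51.8 normalized counts with IGFBP-7 and 160.0 ± 47.7 with PBS, with a log2 change of 1.47 ± 0.16 (limma adjusted p = 1.55e-11). CAMK1D (1.18 ± 0.12) and CAMKK1 (0.88 ± 0.10) also rose, and CAMK2D (-1.15 ± 0.08), CAMK1 (-0.60 ± 0.06) and the calmodulin gene CALM3 (-0.50 ± 0.04) fell. Of 5 tested genes of mitochondrial calcium uptake, LETM1 rose (0.22 ± 0.05), a call lost on scaling to the library total, and MICU3 (-0.34 ± 0.11) and SLC25A23 (-0.18 ± 0.07) fell. MICU3 lost its call without PBS replicate 3 (-0.26, adjusted p = 0.0558), and SLC25A23 without IGFBP-7 replicate 2 (-0.16, adjusted p = 0.062) and without PBS replicate 3 (-0.10, adjusted p = 0.265).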

How the data were processed

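The authors deposited 1 table of normalized counts, a signal scaled by 1 factor per library, per the file headers. STAR, Subread, featureCounts and DESeq2 are named per the submitters' processing notes, while versions, build, annotation and strand setting are not stated there. Every deposited value was a whole multiple of 1 step per library (100% within 0.01 of a step), which returned the read counts. The 11872 genes averaging 10 or more were fitted with limma-trend (limma 3.58.1, R 4.3.3) on log2(normalized count + 1), two-sided, over the 6 libraries without covariates, with Benjamini-Hochberg adjustment. The design named limma for normalized values. The members and lists were chosen with earlier results of these data known. Named genes are members past the test with an absolute log2 change of at least 1, set genes of calcium entry, Piezo, TRP, potassium and chloride channels, the 8 members with the highest means, those next to the filter, the largest rise and fall of each family and, per list, up to 3 rises and 3 falls.

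Alternatives were edgeR 4.0.16 and DESeq2 1.42.0 on recovered reads, pseudocounts of 0.5 and 5, no filter, a filter at 100, scaling to the library total, quantile normalization, a replicate block and each library left out. The fit was tested on simulated data of 11872 genes, of which 67, 67 and 66 were changed by 1.5-, 2- and 4-fold. It recovered 68.7%, 73.1% and 93.9% of these, and 3.68% of its calls were false. In the real data 60.6% of genes changed, so these rates need not hold there. Replicate libraries differed by more than sampling noise (chi-square per degree of freedom 5.10 to 6.93). Exon lengths and overlaps are from GENCODE 29, matched by Ensembl identifier. Some results are not reported here.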

Additional observations from a re-analysis of the deposited data

How the results depend on the processing

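The number of channel genes called stayed within 1.5 times under each alternative run: 22 to 32 rose and 27 to 38 fell. It was 26 and 31 with edgeR and 28 and 30 with DESeq2 on recovered reads, and 55 of the 57 calls had the same direction in all 3 tools. Over all genes edgeR called 3541 higher and 3562 lower, and scaling to the library total gave 2435 genes higher. The median log2 change of the channel genes was -0.28 with that scaling and -0.19 to -0.080 when each library was left out in turn. With a replicate block 28 channel genes rose and 30 fell. Same-numbered libraries did not deviate together (correlations of -0.049 to 0.012), and no library correlated best with its own number. The numbers are not taken as pairs, and the block moved the call of 1 named gene, KCNN4. Of 45 named channel genes tested, 35 kept direction and side of the threshold under every alternative that covered them. The exceptions were ANO7, ANO9, ITPR1, KCNK6, KCNN4, TRPM4 and TRPV1, which crossed the threshold, and KCNJ6, TRPM3 and TRPV4, which did not pass under any alternative and whose sign turned. KCNJ6 was at 0.13 with edgeR and 0.14 with DESeq2, and at -0.75 to 0.71 when each library was left out. TRPM3 was then at -0.38 to 0.083 and TRPV4 at -0.89 to 0.025. The cause was not tested. Without 1 library, 8 of the 57 calls were lost. Of 37 members with means under 100, 10 were called, near the 26.9% of all genes at that level.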

Other observations

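The 76 channel genes under the level filter were not part of the counts above, and 40 of them had a mean under 3 normalized counts. With no filter, 2 of them rose and 7 fell at an adjusted p under 0.05 with limma, and those named here were chosen after their values were seen. Over all 16569 genes that run called 3732 higher and 3445 lower. No share over all genes under the filter is given, so the 2 rises and 7 falls are not a result about channel genes. CACNA1H, a T-type calcium channel pore, had 8.18, 13.5 and 22.7 normalized counts in the IGFBP-7 libraries, against 0, 1.96 and 2.14 in the PBS libraries. That was 46 fragments with IGFBP-7 against 4 with PBS, a ratio of 10.8. Its exact 95% counting interval of 3.93 to 41.2 leaves out the spread between libraries. TRPA1, a channel opened by reactive irritants, had 8.18, 6.77 and 4.13 normalized counts in the IGFBP-7 libraries, against 0, 0 and 0 in the PBS libraries, from 20 fragments with IGFBP-7 and 0 with PBS. It shares 981 exon bases with MSC-AS1 on the other strand, which was at 32.3 ± 13.5 with IGFBP-7 and 0 in every PBS library, so the reads of these 2 genes cannot be told apart.

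The low members that fell included KCNU1, KCNJ2, SCN2B, KCNJ11, KCNJ1 and KCND2. Of the inward rectifiers among them, KCNJ2 held 2 fragments with IGFBP-7 and 21 with PBS, KCNJ11 held 3 with IGFBP-7 and 16 with PBS, and KCNJ1 held 2 with IGFBP-7 and 12 with PBS. KCNU1 held 8 fragments with IGFBP-7 and 48 with PBS. SCN2B held 0 fragments with IGFBP-7 and 8 with PBS, and a count of 0 in the 3 libraries allows up to 3 fragments. KCND2, at 14 fragments with IGFBP-7 and 36 with PBS, overlapped between groups.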
